A study of Mus musculus with 8 samples.

Results

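The glucocorticoid receptor gene Nr3c1 and 9 genes known as its direct targets (Fkbp5, Tsc22d3, Dusp1, Sgk1, Klf9, Ddit4, Zbtb16, Mt1 and Mt2) were followed in mouse peripheral blood after acute stress. These 10 genes were taken by gene symbol from the deposited table of 21878 symbols. The stress group held 4 female wild-type C57BL/6 mice aged 6 to 8 weeks that were kept for 6 hours in a ventilated tube without food and water. The control group held 4 littermates of the same sex, strain and age that stayed in their cage, also without food and water, so that fasting was common to both groups. RNA of whole blood was sequenced, with 1 library per sample.

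Restraint is a classical trigger of the hypothalamus-pituitary-adrenal axis, at the end of which the adrenal cortex releases corticosterone. In resting cells the receptor is held in the cytoplasm by the chaperone Hsp90. When the hormone binds, the receptor moves to the nucleus and, at many genes, attaches as a dimer to a palindromic DNA element, the glucocorticoid response element. Its targets include brakes on the receptor itself (Fkbp5), brakes on inflammatory signalling (Tsc22d3 and Dusp1), regulators of growth and ion transport (Sgk1 and Ddit4), transcription factors (Klf9 and Zbtb16) and metal-binding proteins (Mt1 and Mt2).

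Upstream sequences are shown for 4 targets, Sgk1 for the full response element, Dusp1 for a cAMP response element and Mt1 and Mt2 for the metal response element by which metallothioneins are known. Of the 10 genes, 8 had an entry in the RefSeq-derived table (GRCm38.p6), with 15 gene starts between them. The names without an entry were Nr3c1 and Zbtb16. In the 250 bases before each start, 5 motifs were searched on both strands. The full response element, searched as the half-site AGAACA and its reverse complement TGTTCT with any 3 bases between them, was found before 1 of the 15 starts, one of those of Sgk1, and in 0.00913% of all 32851 windows of this length. The half-site, which thus makes up both ends of the full element, was found before 4 of the 15 starts and in 16.1% of all windows. These 4 starts belonged only to Sgk1 and Tsc22d3, genes with more than 1 start each. The metal response element was searched as TGCACNC and as TGCGCNC. The first form was found before 2 of the 15 starts (10.4% of all windows) and the second before 2 (12.5%). The cAMP response element, TGACGTCA, was found before 1 (1.55%), that of Dusp1. The Sgk1 window (chr10:21993640-21993889, plus strand, 250 bases) lies inside the longer annotated forms of the gene and overlaps no annotated exon. It is printed whole because Sgk1 had the smallest p-value of the 8 genes tested below, and for the other genes a stretch of 30 bases is printed. Capitals mark every match, which for Sgk1 are the full element and a separate half-site upstream of it. The cAMP response element of Dusp1 (chr17:26508597-26508626, minus strand) began 143 bases before the start. The metal response elements shown for Mt1 (chr8:94179055-94179084, plus strand) and Mt2 (chr8:94172557-94172586, plus strand) began 23 and 50 bases before it, the latter read on the opposite strand. The Dusp1 and Mt1 windows overlapped annotated exons of their own genes. The Mt2 window overlapped an exon of Gm45774, and the bases compared after this Mt2 start matched no annotated transcript of Mt2.
Sgk1: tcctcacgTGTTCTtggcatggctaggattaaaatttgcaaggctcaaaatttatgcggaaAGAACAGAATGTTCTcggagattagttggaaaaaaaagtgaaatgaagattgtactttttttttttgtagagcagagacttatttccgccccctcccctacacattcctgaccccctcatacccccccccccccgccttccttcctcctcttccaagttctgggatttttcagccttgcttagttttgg
Dusp1: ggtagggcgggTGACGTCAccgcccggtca
Mt1: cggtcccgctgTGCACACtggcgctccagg
Mt2: ggggggagggcGTGTGCAggctctgtccca
A match describes the letters in this window and no binding was measured here.

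The makeup of the blood RNA differed between the groups. Levels are given as CPM (counts scaled to a common library size), scaled by the TMM method, which takes most genes as unchanged. The total count per sample was 31471145 to 39014775 in the control group and 25978683 to 29655725 among the stress samples. This difference had p = 0.0286 in a two-sided exact permutation test, and no smaller p is possible for groups of 4. The share of haemoglobin genes was 51.9% to 63.8% in control samples and 61.2% to 75.5% in stress samples (exact permutation test, p = 0.0571). Transcripts of all the cell types looked for were present, with Camp as the only marker at 0 in any library. Summed over 12 neutrophil markers, the level was 195 to 383 CPM in the control group and 598 to 877 CPM in the stress group. Over 10 classical monocyte markers it was 331 to 457 CPM and 704 to 1230.0 CPM, and over 10 platelet markers 1410 to 2138 CPM and 3277 to 3943 CPM. Over 10 B cell markers it was 1061 to 1308 CPM and 722 to 950 CPM, so that the groups did not overlap for any of these 4 lists. They overlapped for 10 T cell markers (546 to 587 CPM against 485 to 610.3 CPM), 8 NK cell markers (75.8 to 122 against 64.3 to 141), 8 non-classical monocyte markers (314 to 386 against 257 to 355) and 9 reticulocyte markers (14198 to 39525 against 31283 to 67910.4). In such a mixture, fewer cells of a type and less RNA per cell cannot be told apart. The part of these markers in the results on the receptor and its targets was not tested.

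No gene of the receptor group changed past the test. Of the 10 genes, 8 had at least 10 counts in at least 4 samples and entered the quasi-likelihood fit of edgeR together with all other genes. Of these, 0 had an adjusted p below 0.05, where 14.1% of all 11718 tested genes did (10.4% higher and 3.69% lower in the stress group). At the study's own thresholds, which ask for more than a 2-fold difference (1 on the log2 scale) and an adjusted p under 0.01, the count was also 0, against 1.71% of all tested genes (1.69% higher and 0.0171% lower). At an unadjusted p below 0.05, 2 of the 8 were higher (Sgk1 and Dusp1) and 0 lower, against 18.2% and 13% of all tested genes, or 31.1% in either direction. At an adjusted p below 0.05, DESeq2 (run on all 10) and limma-voom (on 8) gave 0 as well. At an unadjusted p below 0.05 DESeq2 gave 2 higher (Sgk1 and Mt1) and limma-voom 1 (Sgk1), with 0 lower in both. The shares of all genes given above are those of edgeR, and the shares at an unadjusted p were not counted for these other tools. Mt1 had at most 18 counts per library, and its adjusted p in DESeq2 was 0.153. Over the 8 genes the median log2 fold change was 0.22, and over the whole tested table it was -0.03. The 95% intervals contained a log2 fold change of 1 for 3 genes, Fkbp5, Dusp1 and Klf9, and did not for the other 5, and a log2 fold change of -1 lay in 0 of the 8 intervals.

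**Figure D1:**
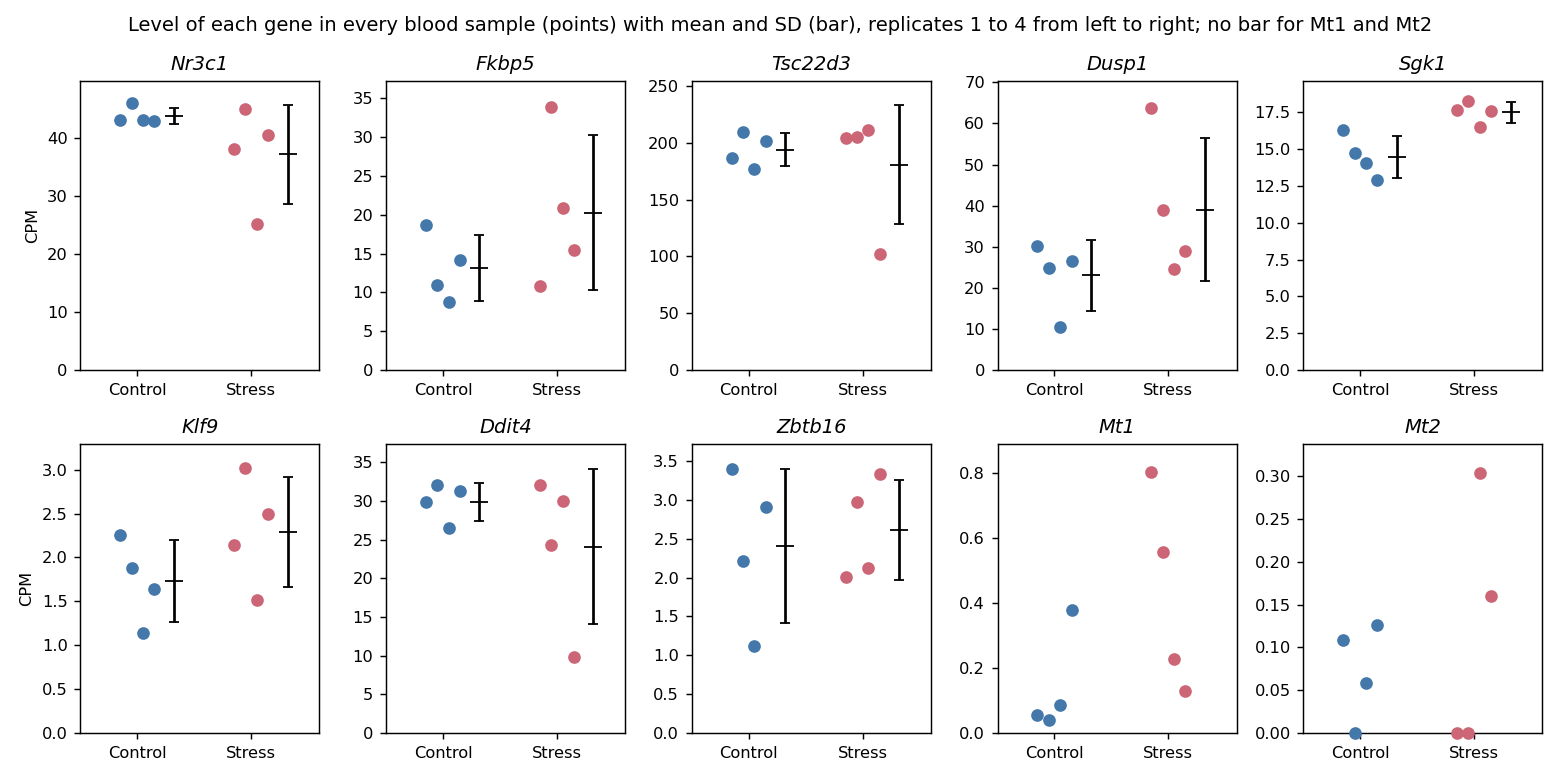
TMM-scaled level (CPM, linear axis from 0) of the receptor gene and its 9 targets in each of the 4 control and 4 stress samples (points), with the mean and SD of each group (bar), except for Mt1 and Mt2. Sgk1 was the only gene tested whose stress samples were all higher than the controls, and Tsc22d3 and Ddit4 had their lowest value in stress replicate 4.

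Relative to gene length, the targets spanned a wide range of levels in the control group. Levels per kilobase of annotated exon were 44.6 ± 3.37 CPM per kb (SD, n = 4) for Tsc22d3, the highest, and 17.0 ± 1.41 for Ddit4. Dusp1 (6.96 ± 2.60) and Nr3c1 (5.70 ± 0.188) followed, with overlapping ranges. Sgk1 stood at 2.95 ± 0.291 CPM per kb and Fkbp5 at 1.39 ± 0.453, with no overlap between these neighbours. The range of Sgk1 (2.63 to 3.33) lay below that of Nr3c1 but overlapped that of Dusp1 (3.20 to 9.13). Zbtb16 (0.455 ± 0.187) and Klf9 (0.359 ± 0.0968) overlapped, and so did Mt2 (0 to 0.215) and Mt1 (0.0311 to 0.304) at the bottom.

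Nr3c1 encodes the receptor and is expressed in nearly all leukocytes. Its level was 43.2, 46.0, 43.1 and 43.0 CPM in control replicates 1 to 4 and 38.1, 44.95, 25.2 and 40.4 CPM in stress replicates 1 to 4. The control samples lay close together, while stress replicate 3 was low and stress replicate 2 was within the range of the controls. Its log2 fold change was -0.23 (95% interval -0.55 to 0.08, adjusted p = 0.298). Stress replicate 3 also had the fewest counts outside the haemoglobin genes, 6355715, and the highest haemoglobin share, 75.5%. The part of these in its low Nr3c1 level was not tested. With 1 sample left out at a time, the log2 fold change of Nr3c1 ran from -0.31 to -0.07. These were the values without stress replicate 2 and without stress replicate 3 (edgeR, adjusted p = 0.179 and 0.62).

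Fkbp5 encodes a co-chaperone that binds Hsp90 and lowers the affinity of the receptor for its hormone, and its induction is a widely used readout of receptor activity. The gene lies on chromosome 17 (28399094 to 28517527, GRCm38). It stood at 18.7, 10.99, 8.79 and 14.1 CPM in the control samples and at 10.8, 33.8, 20.9 and 15.5 CPM in the stress samples. Stress replicates 2 and 3 exceeded every control, but stress replicate 1 was lower than 3 of the 4 controls. This amounted to a log2 fold change of 0.63 (95% interval -0.06 to 1.31, adjusted p = 0.196), a fold of 1.54 that the spread within the groups did not set apart from no change. With 1 sample left out at a time, the log2 fold change ran from 0.28 (without stress replicate 2) to 0.86 (without stress replicate 1). The lowest adjusted p among these fits was 0.0708 (edgeR).

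Tsc22d3 encodes GILZ, a leucine zipper protein through which glucocorticoids restrain inflammatory transcription factors, and lies on the X chromosome (140539528 to 140600659, GRCm38). It was the most abundant of the 10 genes, also per length. Control replicates 1 to 4 had 187, 209.6, 177 and 201 CPM, and stress replicates 1 to 4 had 205, 205, 211 and 102 CPM. Of the stress samples, 3 were near the top of the control range, and stress replicate 4 alone was far below it. The log2 fold change was -0.10 (95% interval -0.53 to 0.33, adjusted p = 0.773), and it was 0.10 without stress replicate 4 (adjusted p = 0.659). That library had the highest summed level of neutrophil markers (877 CPM), while its T cell markers (511 CPM) were within the range of the other stress samples and its B cell markers (950 CPM) were slightly above it. Its NK cell markers (64.3 CPM) and reticulocyte markers (31283 CPM) were the lowest of the stress samples. The part of any of these in the low Tsc22d3 level was not tested.

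Dusp1 encodes a phosphatase that switches off the p38 and JNK kinases and is induced by stress kinases and cAMP as well as by glucocorticoids. It lies on chromosome 17 (26505590 to 26562128, GRCm38), where exons of Ergic1 on the opposite strand overlap its own, and the strand setting of the counting is not given in the sources used here. The level was 30.2, 24.9, 10.6 and 26.5 CPM in the control samples and 63.7, 38.9, 24.6 and 29.0 CPM in the stress samples. Stress replicates 1 and 2 were above every control and control replicate 3 was below every other sample, but the groups overlapped. The log2 fold change of 0.77 was the largest among the 8 genes (95% interval 0.05 to 1.48, unadjusted p = 0.0375 and adjusted p = 0.135 in edgeR's quasi-likelihood test). It was 0.45 without stress replicate 1 and 0.95 without stress replicate 3, the lowest and highest values with 1 sample left out.

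Sgk1 encodes a serine/threonine kinase that regulates ion channels and cell survival, and lies on chromosome 10 (21882184 to 21999903, GRCm38). Its level was 16.3, 14.7, 14.02 and 12.9 CPM in the control samples and 17.7, 18.2, 16.5 and 17.5 CPM in the stress samples. The lowest stress sample was still higher than the highest control, an order found in 1 of the 8 genes and in 11.1% of all tested genes (the opposite order was found in 0 of the 8 and in 9.88% of all), although the gap between stress replicate 3 and control replicate 1 was narrow. Sgk1 had a log2 fold change of 0.27 (95% interval 0.05 to 0.50), a fold of 1.21. In edgeR its unadjusted p was 0.0205 and its adjusted p was 0.0936. Over the alternative settings the adjusted p ranged from 0.0562 to 0.217. By root mean square distance of mean-centred log2 CPM over the 8 samples, the patterns most like that of Sgk1 were those of Rab5a (0.057), Nab1 (0.0612), Rab5b (0.0659), Aftph (0.07) and Mfsd7b (0.0806). Their log2 fold changes were 0.30, 0.29, 0.23, 0.24 and 0.26.

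Ddit4 encodes REDD1, an inhibitor of the growth kinase complex mTORC1, and lies on chromosome 10 (59949669 to 59951834, GRCm38). The level was 29.9, 32.05, 26.5 and 31.3 CPM in the control samples and 32.1, 24.3, 29.98 and 9.86 CPM in the stress samples. As for Tsc22d3, stress replicate 4 was the lowest sample, and the other stress samples were near the controls. Ddit4 had a log2 fold change of -0.32 (95% interval -0.92 to 0.27, adjusted p = 0.446). With 1 sample left out it ran from -0.47 (without stress replicate 1) to -0.06 (without stress replicate 4).

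The transcription factors Klf9 and Zbtb16 were scarce. Klf9, a Krüppel-like factor on chromosome 19 (23141226 to 23168134, GRCm38), had 2.26, 1.88, 1.14 and 1.64 CPM in the control samples and 2.14, 3.02, 1.52 and 2.50 CPM in the stress samples, from counts of 20 to 97 per sample. Stress replicates 2 and 4 exceeded every control and the others did not. The log2 fold change of Klf9 was 0.44 (95% interval -0.14 to 1.02, adjusted p = 0.289). Zbtb16 encodes PLZF, which directs the development of innate-like T cells, and lies on chromosome 9 (48654297 to 48836222, GRCm38). It had 3.40, 2.21, 1.11 and 2.90 CPM in the control samples and 2.01, 2.97, 2.13 and 3.33 CPM in the stress samples. The groups lay on top of each other, with a log2 fold change of 0.16 (95% interval -0.52 to 0.83, adjusted p = 0.772), and of -0.10 without control replicate 3.

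The metallothioneins Mt1 and Mt2 bind zinc and copper and are strongly induced by glucocorticoids in liver. They are neighbours on chromosome 8 (Mt2 at 94172664 to 94173568 and Mt1 at 94179082 to 94180327, GRCm38), and exons of Gm45774 overlap those of Mt2 on the opposite strand. Both were near the floor in blood and were not tested. Mt1 had 2, 2, 6 and 12 counts in control replicates 1 to 4 and 18, 12, 3 and 4 counts in stress replicates 1 to 4. Stress replicates 1 and 2 were the highest by level, at 0.803 and 0.557 CPM, control replicate 4 followed at 0.378 CPM, and the groups overlapped. With no filter on low counts the log2 fold change of Mt1 was 1.70 (standard error 0.81, adjusted p = 0.204 in edgeR). Mt2 had 4, 0, 4 and 4 counts in the control samples and 0, 0, 4 and 5 in the stress samples. A count of 0 allowed up to 0.0581 CPM in control replicate 2, 0.134 CPM in stress replicate 1 and 0.139 CPM in stress replicate 2 (3 counts per library, counting error only). A change in Mt2 was not detectable at this depth.

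The scale of the libraries set the sign of several of these differences. With each library scaled by its total count and nothing else, the median log2 fold change over the tested table moved from -0.03 to -0.82. On that scale 49.6% of all tested genes were lower and 0.444% higher at an adjusted p below 0.05 in edgeR. Of the 8 genes 3 were lower and 0 higher, namely Nr3c1 (log2 fold change -0.98, adjusted p = 0.0185), Tsc22d3 (-0.97, adjusted p = 0.0104) and Ddit4 (-1.21, adjusted p = 0.00969). Relative to the median of all genes on the same scale these changes were -0.16, -0.15 and -0.39. Dusp1 kept a positive estimate (0.07), and Fkbp5 (-0.16), Sgk1 (-0.51), Klf9 (-0.29) and Zbtb16 (-0.51) turned negative, although all 5 stayed above the median of all genes.

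**Figure D2:**
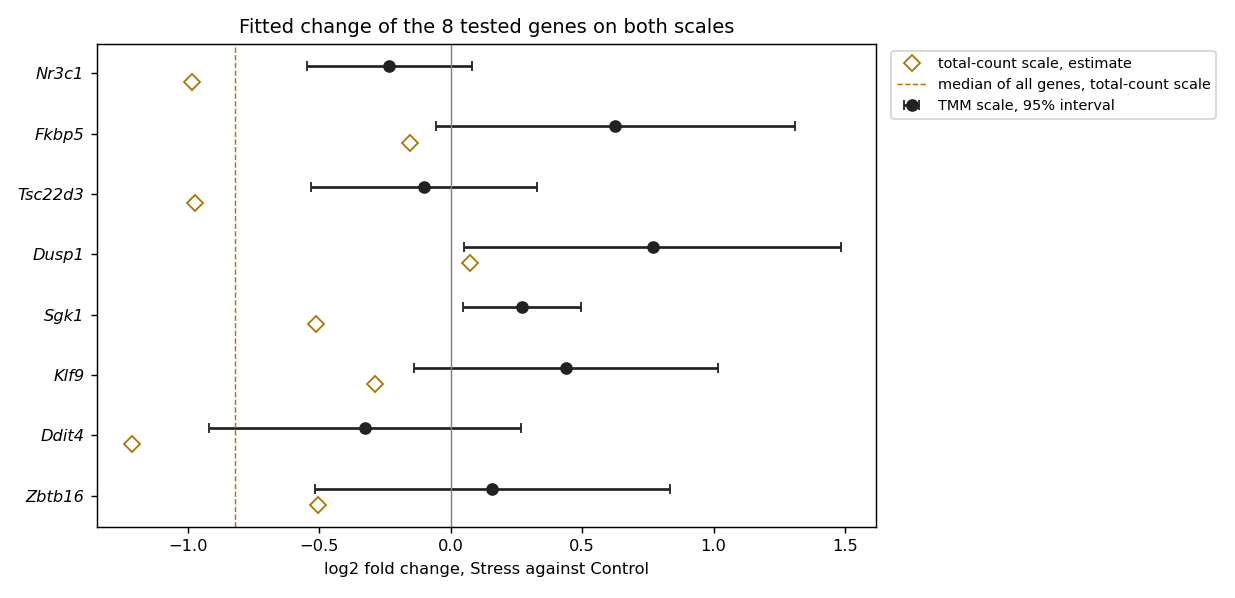
Log2 fold change (Stress against Control) of the 8 tested genes on the TMM scale with its 95% interval (filled circles) and on the total-count scale (open diamonds). The dashed line at -0.82 is the median of all tested genes on the total-count scale, and the diamonds of Nr3c1, Tsc22d3 and Ddit4 lie to its left while the other 5 lie to its right.

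A measure that needs no scaling is the count of each target per count of Nr3c1 in the same library. For Dusp1 this ratio was 0.700, 0.541, 0.245 and 0.617 in control replicates 1 to 4 and 1.67, 0.866, 0.976 and 0.717 in stress replicates 1 to 4. For Sgk1 it was 0.378, 0.320, 0.325 and 0.300 in the control samples and 0.464, 0.406, 0.654 and 0.434 in the stress samples. For Klf9 it was 0.0522, 0.0408, 0.0265 and 0.0382 in the control samples and 0.0562, 0.0671, 0.0602 and 0.0618 in the stress samples. In these 3 of the 7 targets the stress samples were all higher than the controls, and in 0 were they all lower. Against the same denominator, 16.2% of the other tested genes lay above and 1.34% below, so the upward order was common in the whole table. The ratio overlapped between groups for Fkbp5 (0.204 to 0.432 against 0.285 to 0.828), Tsc22d3 (4.10 to 4.69 against 2.53 to 8.39), Ddit4 (0.614 to 0.728 against 0.244 to 1.19) and Zbtb16 (0.0258 to 0.0787 against 0.0527 to 0.0843). For Tsc22d3 and Ddit4 the stress samples spread widely to both sides of the controls, with stress replicate 3 highest and stress replicate 4 lowest. These ratios are given as a description with no test, and a low Nr3c1 count raises all 7 at once.

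**Figure D3:**
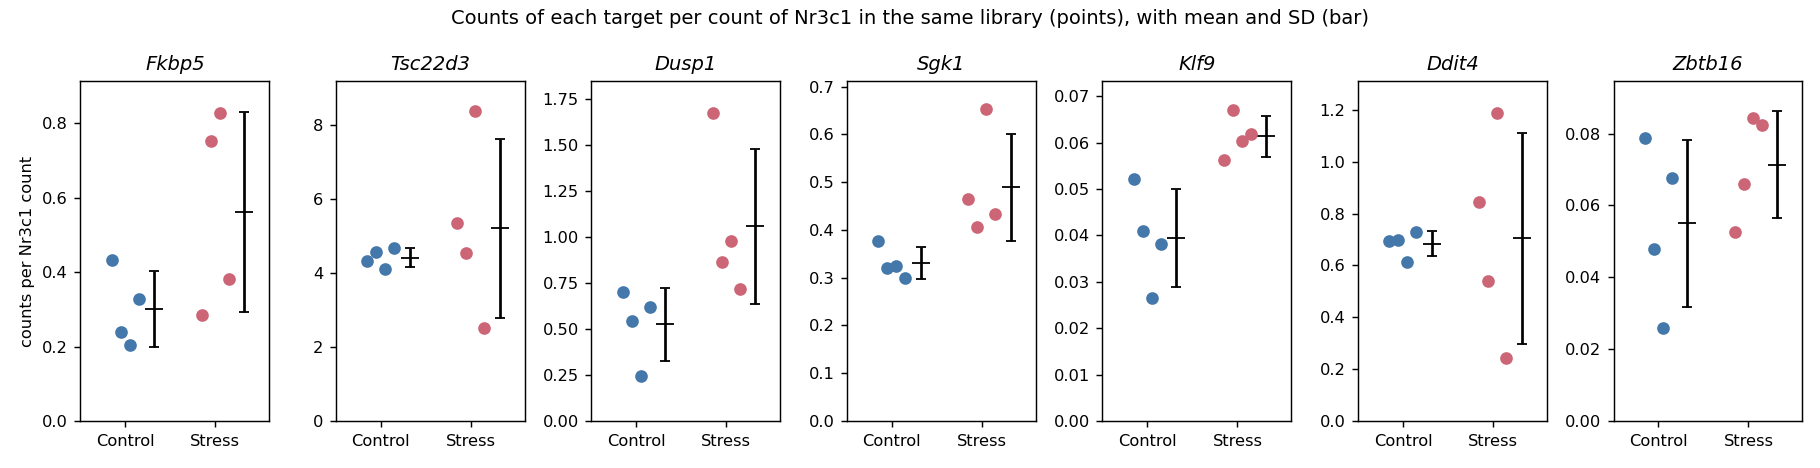
Counts of each of the 7 tested targets per count of Nr3c1 in the same library (linear axis from 0), for the 4 control and 4 stress samples (points) with the mean and SD of each group (bar). The groups are apart for Dusp1, Sgk1 and Klf9 and overlap for Fkbp5, Tsc22d3, Ddit4 and Zbtb16.

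Of the genes of the whole tested table, 10.4% rose and 3.69% fell, and the lists around the receptor are given against these shares. Of 25 genes for chaperones, co-regulators and steroid metabolism, 24 were tested, 1 rose, 0 fell and 23 did not pass (median log2 fold change 0.04). Bag1, a co-chaperone that releases the receptor from Hsp70 and is also abundant in maturing red cells, rose, with 86.3 ± 31.6 CPM in the control and 171 ± 53.1 CPM in the stress samples (SD, n = 4 each) and a log2 fold change of 0.99 (adjusted p = 0.0305 in edgeR). It did not pass without control replicate 2, control replicate 3, stress replicate 2 or stress replicate 3 (adjusted p = 0.081, 0.0705, 0.0688 and 0.131). Nor did it pass with no filter on low counts (0.0805) or on total counts, where its estimate was 0.20 (edgeR, adjusted p = 0.59). Hsp90aa1, the inducible Hsp90, had a log2 fold change of 0.42 (adjusted p = 0.0941), the phosphatase Ppp5c of the receptor complex -0.28 (adjusted p = 0.0817) and the chromatin remodeller Smarca4 -0.25 (adjusted p = 0.113).

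Other genes known to be induced by glucocorticoids split into a few that rose and a majority that did not pass. Of 27 such genes 25 were tested, 7 rose, 0 fell and 18 did not pass, and the median log2 fold change was -0.02, where 10.4% of all tested genes rose and their median was -0.03. The C/EBP transcription factor Cebpd rose, with 5.38 ± 1.43 CPM in the control and 14.3 ± 2.12 CPM in the stress samples. Lcn2, a neutrophil granule protein that binds bacterial siderophores, rose too, with 4.72 ± 1.13 and 20.4 ± 6.25 CPM (SD, n = 4 each, adjusted p = 9.00e-04 for both in edgeR). The other 5, named here after their values were seen, were the interleukin-1 decoy receptor Il1r2 (log2 fold change 2.03), annexin A1, Anxa1 (1.24), Cebpb (1.597), the G protein regulator Rgs2 (0.74) and the growth arrest gene Gadd45a (1.03). Cebpb did not pass without control replicate 2 or 3 or stress replicate 1, 2 or 3, nor Gadd45a without control replicate 2 or stress replicate 2 or 3 (highest adjusted p = 0.126 and 0.15). With no filter on low counts neither passed (edgeR, adjusted p = 0.156 and 0.108), and Cebpb did not in limma-voom (adjusted p = 0.0616). On total counts 3 of the 25 genes were higher and 11 lower at an adjusted p below 0.05, where 0.444% and 49.6% of all tested genes were, and Rgs2 turned to -0.0058. Cebpd did not pass on that scale (log2 fold change 0.73, adjusted p = 0.0595 in edgeR), nor did Anxa1 and Gadd45a (adjusted p = 0.187 and 0.554). The summed neutrophil markers, 195 to 383 CPM in the control group and 598 to 877 CPM in the stress group, were higher too. So were those of classical monocytes and platelets, while those of B cells were lower. The part of each of these in the list was not tested. Sesn1 and Pik3ip1, which restrain growth signalling, had log2 fold changes of -0.42 (adjusted p = 0.0724) and -0.19 (adjusted p = 0.445), and Sesn1 fell past the test without stress replicate 3 (adjusted p = 0.0118).

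Of 16 inflammatory genes that glucocorticoids are known to repress, 7 were tested, 1 rose, 0 fell and 6 did not pass (median log2 fold change 0.01), where 10.4% of all tested genes rose and 3.69% fell. The one that rose was Il1b, which encodes interleukin-1 beta, with 18.6 ± 7.05 CPM in the control and 42.6 ± 11.3 CPM in the stress samples (SD, n = 4 each). Its log2 fold change was 1.20 (adjusted p = 0.0151 in edgeR), and 0.55 on total counts. It did not pass on total counts (edgeR, adjusted p = 0.155), without stress replicate 3 (adjusted p = 0.0522) or with no filter on low counts (adjusted p = 0.0827). The chemokine Ccl3 had a log2 fold change of 0.40 (-0.44 on total counts), Tnf of -0.39 and Ccl4 of -0.39, none past the test. All of these were scarce, with means of 0.367, 0.862 and 0.801 CPM in the control samples. In the stress samples the means were 0.501, 0.654 and 0.646 CPM.

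Of 30 family relatives of the 10 genes, 26 were tested, 5 rose, 0 fell and 21 did not pass, with a median log2 fold change of 0.13, against 10.4% higher and 3.69% lower among all tested genes. Fkbp1a, the calcineurin-binding immunophilin, had a log2 fold change of 0.71 (-0.13 on total counts) and the phosphatase Dusp3 of 0.80 (0.04 on total counts), both past the test (adjusted p = 0.00391 and 0.00319 in edgeR). The other 3, named here after their values were seen, were Fkbp8 (0.48, -0.33 on total counts), the ERK phosphatase Dusp6 (0.57, -0.17 on total counts) and Tsc22d1 (0.95, 0.17 on total counts). Without control replicate 2 or control replicate 3 the count was 3 in place of 5, as Fkbp8 and Dusp6 did not pass. Tsc22d1 was at 633 ± 92.6 CPM in the control group and 1228 ± 161 CPM in the stress group (SD, n = 4 each), so that its level rose while that of its relative Tsc22d3 was 194 ± 14.7 and 181 ± 52.5 CPM. The zinc finger gene Zbtb7a (-0.21) and the phosphatase Dusp4 (-0.34) did not pass. Summed platelet markers, 1410 to 2138 CPM in the control group and 3277 to 3943 CPM in the stress group, were higher too. So were those of neutrophils and classical monocytes, while those of B cells were lower. The part of each of these in the list was not tested.

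The genes around the metallothioneins did not differ past the test. Of 12 genes, the metal-sensing transcription factor Mtf1 and 11 zinc transporters, 12 were tested, and edgeR gave 0 at an adjusted p below 0.05 (median log2 fold change 0.01). Among all tested genes the share at this threshold was 14.1%. The transporter Slc30a7 had a log2 fold change of -0.33 (adjusted p = 0.131), and fell past the test without stress replicate 4 (adjusted p = 0.0236). Slc30a5 stood at -0.16, Slc39a8 at 0.52 and Slc30a1, a target of Mtf1, at 0.14, with the last 2 at -0.42 and -0.61 on total counts. Slc39a8 was scarce, with means of 0.597 CPM in the control and 0.92 CPM in the stress samples.

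**Figure D4:**
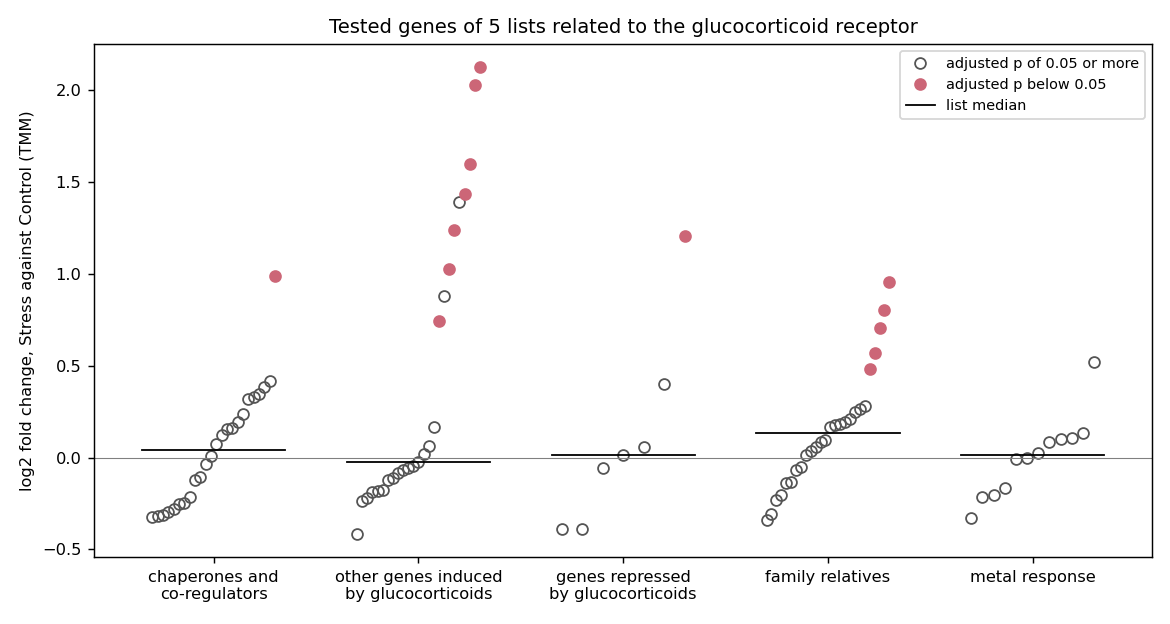
Log2 fold change (Stress against Control, TMM scale) of each tested gene in 5 lists around the glucocorticoid receptor, sorted within a list, with filled points for an adjusted p below 0.05 and a line at the list median. The medians lie between -0.02 and 0.13, and the filled points, 1, 7, 1, 5 and 0 from left to right, all lie above 0.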

How the data were processed

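Whole-blood RNA sequencing covered 4 control and 4 stress samples, grouped by their labels. The deposited values are raw counts of reads for each gene symbol, which the authors did not normalize. The submitters' processing notes name HISAT2, featureCounts and mm10, and versions, annotation and strand setting are not given in the sources used here. Total counts were 25978683 to 39014775 per library, and the libraries with fewest counts outside the haemoglobin genes measured low genes least precisely. No label says that samples came from separate cages or days, so p-values measure the spread between these samples.

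The 11718 of 21878 genes that reached 10 counts in 4 or more samples were tested with R 4.3.3 and edgeR 4.0.16 (TMM, robust quasi-likelihood test, Benjamini-Hochberg adjustment over all tested genes). A gene passed at an adjusted p below 0.05. Fits were tested on simulated data. CPM used the TMM-scaled library size, and exon length and coordinates came from GENCODE M21 (GRCm38). Alternatives were other scalings and filters, leaving out haemoglobin genes, DESeq2 1.42.0, limma-voom (limma 3.58.1), a block on replicate number and the omission of each sample in turn. Lists count tested genes only. The genes and lists were chosen with earlier results of these data known. The genes named by rule were the 10 genes, up to 2 genes per list and direction with the smallest p, and the 5 genes closest to the member with the smallest p.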

Additional observations from a re-analysis of the deposited data

Results flagged for a closer look

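Among 16 sets of 4 values (8 tested genes in both groups), 2 held a sample far from the other 3, where the gap to the nearest sample divided by the whole range exceeded Dixon's 95% critical value. Chance gives this in about 1 in 20 sets. The level of Tsc22d3 in stress replicate 4 (102 CPM) lay apart from the other stress samples (205 to 211 CPM), with a gap of 0.937 of the range. The level of Nr3c1 in control replicate 2 (46.0 CPM) lay apart from the other controls (43.0 to 43.2 CPM), with a gap of 0.927 of a range that was itself narrow.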

How the results depend on the processing

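Of the 136 results for the 8 tested genes under the 17 alternatives, 126 kept their direction and side of the threshold, 4 newly passed it and 6 reversed. None could be lost, as 0 of the 8 passed in the main fit. For the other named genes 494 results kept both, 18 newly passed, 13 reversed and 33 were lost. Scaling by total counts accounts for most reversals. It turned the log2 fold change negative for Fkbp5 (-0.16), Sgk1 (-0.51), Klf9 (-0.29), Zbtb16 (-0.51), Hsp90aa1 (-0.38), Ccl3 (-0.44), Fkbp1a (-0.13), Slc39a8 (-0.42), Slc30a1 (-0.61), Rgs2 (-0.0058), Fkbp8 (-0.33), Dusp6 (-0.17), Rab5a (-0.48), Nab1 (-0.47), Rab5b (-0.56), Aftph (-0.55) and Mfsd7b (-0.50). On that scale 14 genes of the whole table were higher and 728 lower at the study thresholds, and 52 higher and 5811 lower at an adjusted p below 0.05. Of the receptor group 1 was lower at the study thresholds and 3 at an adjusted p below 0.05. Higher were 0 genes of the receptor machinery, 3 other induced genes, 0 repressed genes and 0 relatives, and lower were 12, 11, 4 and 10, with 4 of the metal response.

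Genes lower at the study thresholds numbered 4 with upper-quartile factors, 4 with no filter, 12 with DESeq2 (307 higher) and 1 with the block on replicate number. With no filter 0 receptor machinery genes and 0 repressed genes were higher. Same-numbered samples did not deviate together (correlations -0.16 to 0.06), so the numbers were not taken as pairs. With the block, 1 of the receptor group was higher (Dusp1, log2 fold change 0.76, adjusted p = 0.0179), 0 of the receptor machinery (Bag1, 0.127), 5 of the other induced genes (without Cebpb, 0.0817, and Gadd45a, 0.125), 4 of the relatives (without Fkbp8, 0.0536), and 240 genes of the whole table were lower at an adjusted p below 0.05.

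With 1 sample left out at a time, 76 to 340 genes of the whole table were higher and 1 to 8 lower at the study thresholds, and 617 to 1425 higher and 81 to 726 lower at an adjusted p below 0.05. The receptor group had 0 to 0, receptor machinery 0 to 1 higher, repressed genes 0 to 1 higher, relatives 3 to 5 higher, other induced genes 5 to 7 higher and 0 to 1 lower, and metal response 0 to 1 lower. The log2 fold change of Tsc22d3 was -0.17 to 0.10, above 0 only without stress replicate 4, and that of Zbtb16 was -0.10 to 0.37, below 0 only without control replicate 3. The causes of these changes were not tested. Depth limits Mt1 and Mt2, which had at most 18 counts per library.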
